A study of Homo sapiens with 22 samples.

Results

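The study profiled 40021 WM989 melanoma cells by single-cell RNA-seq after 4 culture conditions. Of the authors' 13 Louvain clusters, clusters 5 and 7 had the highest median G2M scores. These scores, the authors' measure of G2M gene expression, were 0.280 and 0.648, with the next cluster, cluster 1, at 0.143. Their cells are called mitotic here as a label. Among the 13 clusters, cluster 5 ranked 1 or 2 for CCNB1, CDC20, CENPE and PLK1. It ranked 6 for FAM83D and TOP2A, 8 for UBE2C and PIF1, and 12 for CDK1. Membership was taken from the deposited cluster labels, which gave 5415 cells (13.5% of all cells), 3189 in cluster 5 and 2226 in cluster 7. Neither cluster belongs to the primed state, the rare state with a higher chance of surviving BRAF and MEK inhibition, which the authors assigned to clusters 4 and 10 (4077 cells). The other 9 non-primed clusters, the comparison throughout, held 30529 cells.

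WM989 is a BRAF-mutant human melanoma line, and the cells used here descend from a single-cell clone and carried lentiviral lineage barcodes. All 4 conditions started from the same barcoded cells split over separate plates. Control cells were left untreated, TGFB1 cells received recombinant TGF-beta 1, TGFBRi cells the TGF-beta receptor inhibitor LY2109761, and PI3Ki cells the PI3K inhibitor GDC-0941. Each condition has 2 libraries, called r1 and r2 in the cell labels, while the sample labels distinguish a Mix and a Primed library, and which is which is not given in the sources used here. The libraries held 463 to 1010 mitotic cells each, with 690 and 627 in Control r1 and r2, 497 and 661 in TGFB1, 771 and 1010 in TGFBRi, and 463 and 696 in PI3Ki.

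Entry into mitosis is driven by cyclin B bound to CDK1, with Polo-like and Aurora kinases building the spindle and the anaphase-promoting complex, APC/C, ending the process by degrading cyclins and securin. The genes of these proteins are transcribed late in the cell cycle, largely by MuvB complexes with B-MYB and FOXM1 acting at promoter elements called CHR and CCAAT boxes. Immediate early genes such as EGR1, EGR3 and MYC are instead switched on within minutes of growth factor or MAPK signalling, a pathway that mutant BRAF keeps active in melanoma.

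The authors' phase calls, which are part of how these clusters were chosen, describe the members and do not test the label. In them, 5255 members (97.0%) were G2M, 145 were G1 and 15 were S, and all of the G1 and S members were in cluster 5. The members made up 47.4% of the 11090 G2M cells, so the other clusters held the remaining G2M cells. The median G2M score, the authors' measure of the expression of G2M genes relative to control genes, was 0.280 in cluster 5 and 0.648 in cluster 7. All 12 melanocyte markers were present in both, summing to 4518 to 6149 CPM (UMI counts scaled to the summed counts of a library's cells in that cluster) per library in cluster 5 and 4570 to 6793 in cluster 7. Of 10 leukocyte markers 4 had any count in cluster 5 and 5 in cluster 7, with sums of 26.6 to 39.9 and 28.4 to 43.9 CPM, and CD3D, CD3E, MS4A1 and TYROBP were at 0 in both.

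Libraries held 3692 to 6273 cells and 70239657 to 122420544 UMIs, and the deposited cells had 2001 to 5999 detected genes. Cluster 7 cells carried more UMIs. Their median was 22758, that of cluster 5 cells was 14995, and the ratio of these medians within a library was 1.47 to 1.74 over the 8 libraries. Cluster 0, with 54.2% G1 cells, had a median of 15631. The ratio of cluster 5 to cluster 0 medians within a library was 0.911 to 1.08. More than 5500 genes were detected in 476 cluster 7 cells (21.4%) and in 2.48% of cluster 5 cells, so the upper bound of 5999 genes lies closer to cluster 7. Doublets were not called here, and their part in the results was not tested. Of the 10x cell barcodes, which mark droplets and are unrelated to the lentiviral lineage barcodes, 194 occurred in 2 libraries (388 cells, of which 59 were members), and leaving those cells out ended none of the 34 treatment calls named below.

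Of the 8 marker genes given for these clusters, 4 were highest in the pair and 4 separated the clusters from each other. CCNB1 (cyclin B1, chromosome 5, 69167135 to 69178245, plus strand, hg38, GENCODE v44) was at 421.6 CPM in cluster 7 and 394 in cluster 5, with the next cluster, cluster 12, at 193. CDC20 (the APC/C activator that recognises cyclin B and securin, chromosome 1, 43358981 to 43363203, plus strand) was at 228 CPM in cluster 5, 216 in cluster 7 and 109.7 in cluster 12. CENPE (a kinesin that moves chromosomes to the spindle equator, chromosome 4, 103105349 to 103198445, minus strand) reached 247 CPM in cluster 7 and 188 in cluster 5. The top cluster in the order differed between these genes, but clusters 5 and 7 took its top places for each of them. PLK1 (Polo-like kinase 1, chromosome 16, 23677656 to 23690367, plus strand) was at 214 CPM in cluster 7 and 115 in cluster 5. The clusters were built from these genes, so their differences are a description and carry no test.

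UBE2C, FAM83D and PIF1 marked cluster 7 and not cluster 5. UBE2C, the E2 enzyme that works with the APC/C (chromosome 20, 45812576 to 45816957, plus strand), had 652 and 696 CPM in cluster 7 of Control r1 and r2, 684 and 642 in TGFB1, 638 and 614 in TGFBRi, and 574 and 581 in PI3Ki. In cluster 5 the same libraries had 106, 104, 117, 114, 109.7, 119, 84.4 and 90.5 CPM. The ranges do not overlap. FAM83D, which recruits casein kinase 1 to the spindle (chromosome 20, 38926312 to 38953106, plus strand), was at 97.6 CPM in cluster 7 and 16.8 in cluster 5. PIF1, a DNA helicase (chromosome 15, 64815632 to 64825668, minus strand), was at 68.3 to 91.6 CPM over the 8 libraries in cluster 7 and at 6.04 to 11.8 in cluster 5, where it did not exceed the 8.75 to 12.9 CPM of the other non-primed cells.

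EGR3, a zinc finger transcription factor of the immediate early class, marked cluster 5 alone. Its levels there were 67.9 and 74.8 CPM in Control r1 and r2, 44.3 and 57.1 in TGFB1, 79.8 and 65.7 in TGFBRi, and 67.5 and 55.8 in PI3Ki. In cluster 7 they were 10.3, 12.9, 12.3, 17.0, 12.2, 13.2, 11.6 and 11.7 CPM in the same order. Every cluster 5 value was above every cluster 7 value, and cluster 7 lay within or near the 11.5 to 17.5 CPM of the other non-primed cells.

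**Figure D1:**
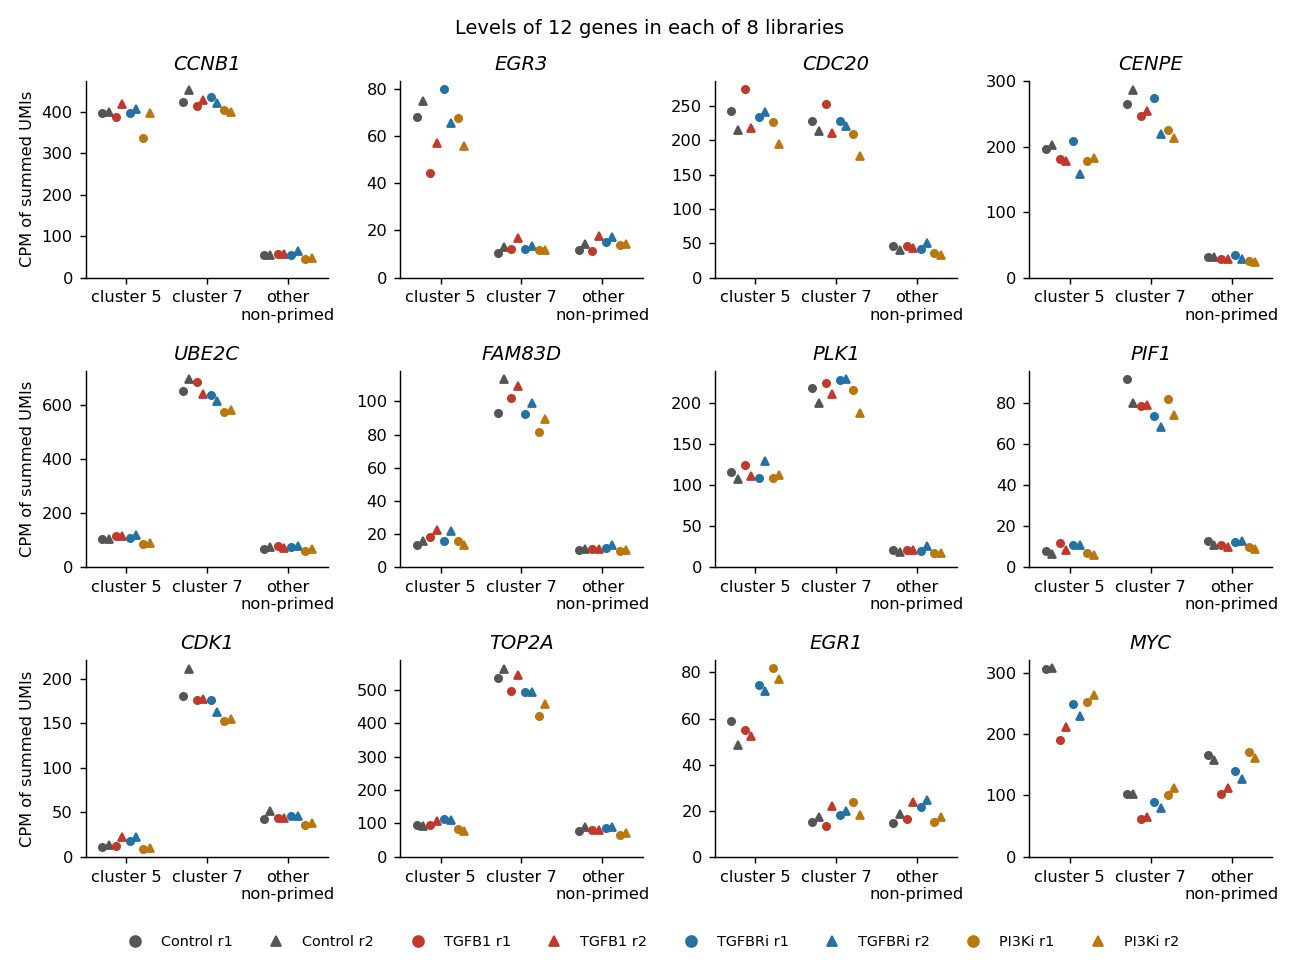
CPM of 12 genes (vertical axes) in cluster 5, cluster 7 and the other non-primed cells, 1 point per library, coloured by treatment with circles for r1 and triangles for r2. CCNB1, CDC20, CENPE and PLK1 stand above the other non-primed cells in both clusters, UBE2C, FAM83D, PIF1, CDK1 and TOP2A are high in cluster 7 (UBE2C 574 to 696 CPM against 84.4 to 119 in cluster 5), and EGR3, EGR1 and MYC are higher in cluster 5 than in cluster 7 (EGR3 44.3 to 79.8 CPM against 10.3 to 17.0).

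Across all genes with at least 20 CPM in either cluster (5909 genes), 1563 (26.5%) were higher in cluster 5 than in cluster 7 in all 8 libraries and 1216 (20.6%) were lower in all 8. Past a 2-fold median ratio there were 23 higher genes (0.389%) and 34 lower genes (0.575%). The median log2 ratio of all these genes was 0.03. The largest deficit in cluster 5 was that of CDK1, the kinase partner of cyclin B, which had 11.0 and 13.0 CPM in Control, 12.1 and 21.9 in TGFB1, 18.0 and 22.1 in TGFBRi, and 9.17 and 10.4 in PI3Ki. Cluster 7 had 180.3, 210.3, 176, 177, 176, 163, 152 and 155 CPM in the same libraries. The median log2 ratio, taken with a pseudocount of 1 CPM, was -3.77 (range -3.92 to -2.82), and the cluster 5 levels were also below the 36.2 to 51.0 CPM of the other non-primed cells. Summed over all libraries, which the clusters draw on unequally, CDK1 was at 173 CPM in cluster 7 and at 14.7 CPM in cluster 5, with clusters 0, 2 and 9 at 16.6, 17.3 and 15.5 CPM, inside the range of the cluster 5 libraries.

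After CDK1, the lowest ratios in cluster 5 were those of PIF1 (median log2 ratio -3.23), UBE2C (-2.57), FAM83D (-2.46), FAM110A (-2.39), TOP2A (-2.36), CCNF (-2.36), FBXO5 (-2.27), KPNA2 (-2.06) and HJURP (-2.03), each lower in 8 of 8 libraries. TOP2A, topoisomerase II alpha, which untangles sister chromatids, was at 76.9 to 113 CPM in cluster 5 and 421 to 563 in cluster 7. CCNF, cyclin F, a substrate adaptor of an SCF ubiquitin ligase, was at 9.58 to 12.9 and 55.6 to 68.0 CPM. HJURP, the chaperone that loads CENP-A at centromeres, was at 18.7 to 29.7 and 93.1 to 116 CPM. FBXO5, an APC/C inhibitor also called EMI1, was at 5.26 to 8.89 CPM in cluster 5, below both cluster 7 (28.3 to 40.5 CPM) and the other non-primed cells (26.9 to 34.8 CPM).

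The highest ratios in cluster 5 were those of EGR3 (median log2 ratio 2.34), EGR1 (1.85), the transcript AL118516.1 (1.75), IER2 (1.71), CDKN2B (1.65), SPRY4 (1.65), MYC (1.54), CREBRF (1.49), HIST1H2AC (1.49) and IER3 (1.46), each higher in 8 of 8 libraries. MYC, the growth-promoting transcription factor, had 307 and 308 CPM in cluster 5 of the Control libraries, 190.3 and 212 in TGFB1, 249 and 229 in TGFBRi, and 252 and 264 in PI3Ki. In cluster 7 MYC had 102, 103, 61.3, 65.6, 89.9, 79.7, 101 and 112 CPM, below the cluster 5 value in every library. Other clusters had MYC levels closer to cluster 5 (259 CPM), with 202 in cluster 0 and 195 in cluster 6. SPRY4, a feedback inhibitor of receptor tyrosine kinase signalling, was at 40.3 to 60.3 CPM in cluster 5 and 13.1 to 20.2 in cluster 7. CDKN2B, the CDK4 and CDK6 inhibitor p15, was at 17.2 to 47.7 CPM and 6.34 to 15.5 CPM, and these ranges do not overlap either.

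By gene list, most cyclin-CDK1, kinase, kinetochore and spindle genes were lower in cluster 5 than in cluster 7, and 14 of 22 immediate early genes were higher. All 10 cyclin-CDK1 genes at 20 CPM or more were lower in cluster 5 in every library (median log2 ratio -0.67), as were 9 of 10 mitotic kinase and transcription genes (-0.47), 21 of 25 kinetochore and centromere genes (-0.51) and 32 of 35 spindle genes (-0.59). No gene of these 4 lists was higher in cluster 5 in all 8 libraries. The spread within a list was wide, with CCNB1 at a median log2 ratio of -0.09, CCNB2 at -0.22, HMMR at -0.13 and AURKB at -1.39. APC/C and checkpoint genes split, with 5 of 14 lower and 2 higher in cluster 5 in all libraries. CDC20 belonged to the latter pair, at a median log2 ratio of 0.11. Chromosome condensation genes were lower for 11 of 15. Of all genes, 20.6% were lower and 26.5% higher in cluster 5 in all 8 libraries.

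Of 22 immediate early genes at 20 CPM or more, 14 were higher in cluster 5 in all 8 libraries and none was lower in all 8, with a list median of 0.64. DUSP6, a phosphatase that inactivates ERK, had 177 to 216 CPM in cluster 5 and 66.5 to 93.8 in cluster 7. FOS, a subunit of AP-1, had 48.7 to 67.4 and 30.1 to 44.2 CPM. The other 8 genes changed direction between libraries. Among 8 replication-dependent histones, 6 were higher and 2 lower in cluster 5, and among 26 DNA replication genes 4 were higher and 7 lower. Over all genes 26.5% were higher and 20.6% lower in all 8 libraries, so the share of lower replication genes is near that of all genes.

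Set against the other non-primed cells, both clusters together had late cell cycle genes high and S phase genes low. Of 5839 genes at 20 CPM or more, 2608 (44.7%) were higher in the members in all 8 libraries and 1029 (17.6%) lower, and 108 (1.85%) were past 2-fold up and 39 (0.668%) past 2-fold down. The highest ratios were those of PLK1 (median log2 ratio 2.99), CCNB1 (2.90), CENPE (2.87), NEK2 (2.81), AURKA (2.67), KIF20A (2.64), KIF14 (2.61), CENPA (2.53), ASPM (2.52) and DLGAP5 (2.48). Kinases (PLK1, NEK2, AURKA), spindle factors (KIF20A, KIF14, ASPM, DLGAP5) and centromere proteins (CENPE, CENPA) are all among them. The lowest were the S phase genes HIST1H2AH (-2.15), DTL (-2.13), UNG (-2.105), MCM6 (-2.05), HIST1H1B (-2.01), HIST1H1A (-1.92), E2F1 (-1.90), HIST2H2AC (-1.87), MCM5 (-1.73) and WDR76 (-1.61). MCM6, a subunit of the replicative helicase, was at 18.3 to 22.9 CPM in cluster 5, 11.7 to 17.9 in cluster 7 and 68.9 to 81.2 in the other non-primed cells.

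Each cluster was also compared separately with the other non-primed cells. Over 6027 genes at 20 CPM or more in any of these classes, 43.5% were higher in cluster 5 in all 8 libraries and 19.9% lower, and 33.1% were higher in cluster 7 and 14.4% lower. Spindle genes were higher in all libraries for 34 of 35 genes in cluster 5 (median log2 ratio 1.21) and for 35 of 35 in cluster 7 (1.961). Cyclin-CDK1 genes were higher for 7 of 10 in cluster 5 (1.07), with 1 lower, and for 10 of 10 in cluster 7 (2.0998). DNA replication genes were lower in all libraries for 33 of 34 in cluster 5 and 30 of 34 in cluster 7. Immediate early genes were higher for 17 of 22 in cluster 5 (0.81), whereas cluster 7 had 7 of 22 higher and 4 lower with a median of -0.01, a share of higher genes near that of all genes.

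**Figure D2:**
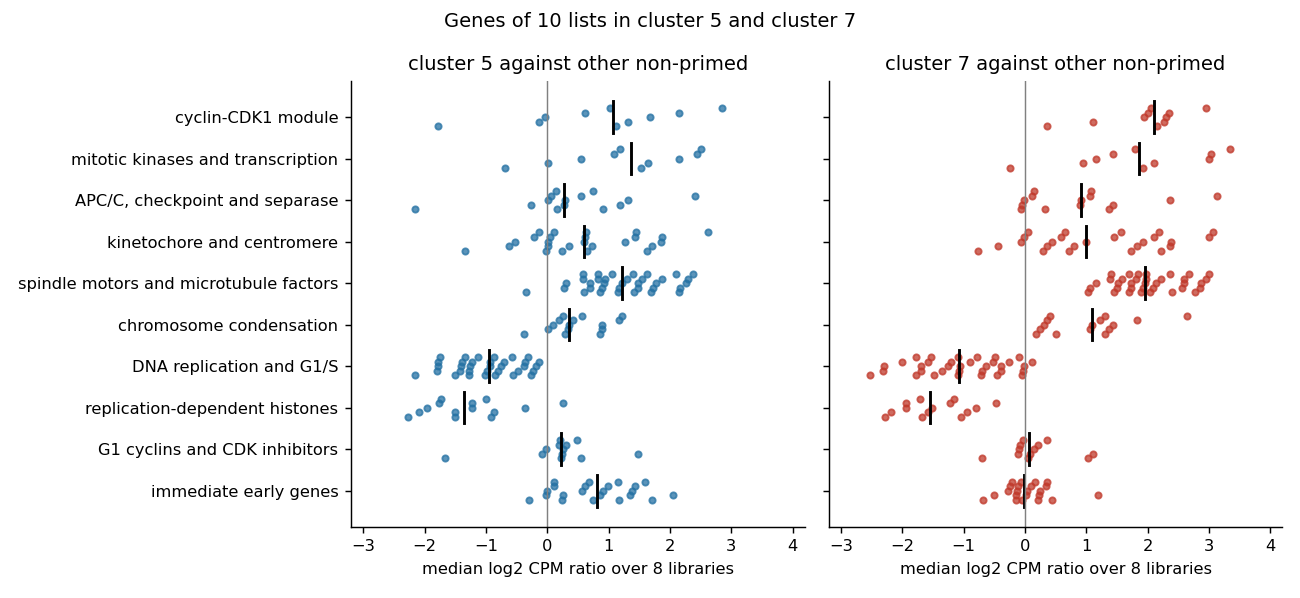
Median log2 CPM ratio over 8 libraries (horizontal axis) of the genes of 10 lists in cluster 5 (left) and cluster 7 (right) against the other non-primed cells, 1 point per gene with at least 20 CPM and a black bar at the list median. Spindle genes centre on 1.21 in cluster 5 and 1.961 in cluster 7, and immediate early genes on 0.81 and -0.01.

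Since cluster 7 cells carried more UMIs, the share of cells with at least 1 UMI of a gene was also compared after thinning every cell to 5000 UMIs, which left out 11 members. CDK1 was detected in 5.82% of thinned cluster 5 cells and 56.9% of cluster 7 cells (14.9% and 93.8% before thinning). The first of these is set beside the 4.66% of cluster 6, a cluster with 73.2% G1 cells and a median of 16843 UMIs. Cluster 6 is a comparison only, since its cells may express these genes, and the level of free RNA was not measured. UBE2C was detected in 34.7% and 93.3% (64.1% and 99.9% before thinning, 4.43% in thinned cluster 6), and EGR3 in 26.3% and 5.94% (51.8% and 22.6% before thinning, 5.57% in cluster 6, where EGR3 was at 11.7 CPM). CCNB1, by contrast, was detected in 83.7% of thinned cluster 5 cells and 83.6% of thinned cluster 7 cells, against 6.12% in cluster 6. MYC was detected in 61.2% of thinned cluster 5 cells, 60.6% of cluster 6 and 59.2% of cluster 0 cells, against 31.8% of cluster 7 cells. PIF1 reached 3.90% in cluster 5, 30.3% in cluster 7 and 2.84% in cluster 6. Cluster 6 ranked last of all clusters for CCNB1, UBE2C, PIF1 and CDK1. In the thinned other non-primed cells, the shares were 15.9% for CDK1, 22.2% for UBE2C and 7.18% for EGR3. There they were 19.0% for CCNB1, 47.2% for MYC and 4.34% for PIF1.

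A pair of G2M clusters was also present in cells that the clustering did not use. In a separate experiment on 12531 untreated WM989 cells with 11 clusters of its own, clusters 6 (747 cells, 99.7% G2M) and 7 (730 cells, 100% G2M) were the only clusters with at least 95% G2M cells. Per the study's methods, those cells came from a well of mixed and a well of EGFR/NGFR-high sorted cells, and each was divided over 2 wells of the chip. The cluster with the lower G2M score (1.56, median of 43689 UMIs) was set against cluster 5 and that with the higher score (3.14, 64334.5 UMIs) against cluster 7. The score is computed from G2M genes, so this matching in part fixed the direction of mitotic genes such as CDK1, UBE2C, TOP2A and HJURP, and the values are a description. All 10 genes highest and all 10 genes lowest in cluster 5 had the same direction in r1 and r2 of that experiment, which its labels give as a single sample and which may be technical splits, with median log2 ratios of 1.70 and 1.68 for the former and -2.13 and -2.03 for the latter. CDK1 was at 19.96 CPM in the low-score and 130.2 in the high-score cluster of r1, and at 30.8 and 201 in r2. EGR3 was at 21.3 and 3.95 CPM in r1 and at 51.1 and 10.9 in r2, and MYC at 325 and 99.8 CPM in r1 and at 421 and 132 in r2. CCNB1 differed in sign from the treatment experiment, with 367 and 230.0 CPM in r1 and 340 and 273 in r2. Across 5836 genes, which are not independent replicates, the ratio in the untreated experiment had a Pearson r of 0.781 in r1 and 0.828 in r2 with the median ratio of the treatment experiment.

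**Figure D3:**
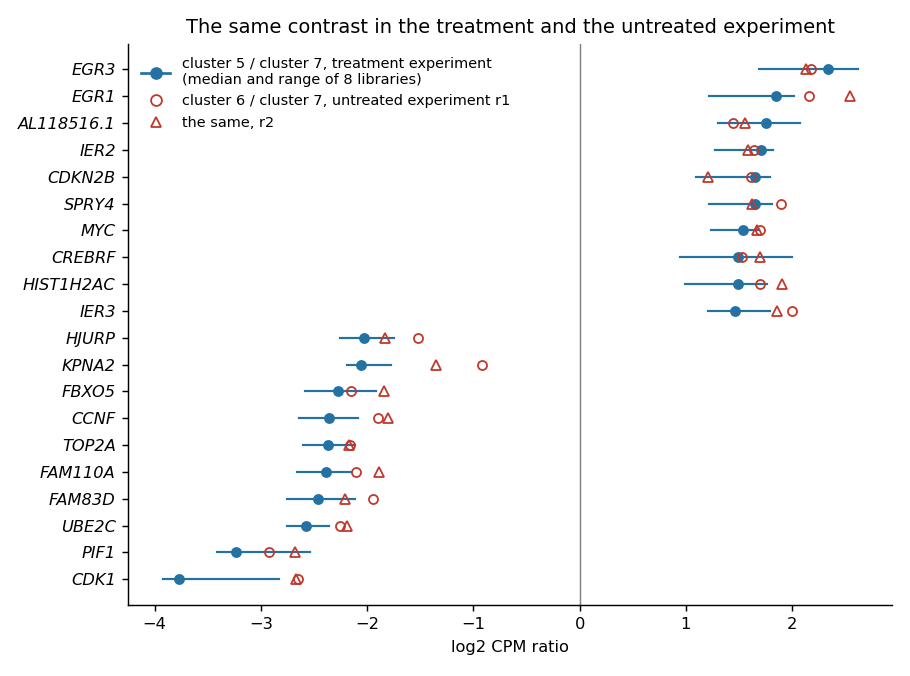
Log2 CPM ratio (horizontal axis) of the 10 genes highest and 10 lowest in cluster 5 against cluster 7. Filled points are the median over 8 libraries of the treatment experiment with lines for their range, and open circles and triangles are r1 and r2 of the untreated experiment, which fall on the same side of 0 for all 20 genes, from EGR3 (2.34 in the treatment experiment) to CDK1 (-3.77).

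The promoters of the separating genes were examined for cell cycle elements in the RefSeq table of 27305 human promoters (GRCh38.p14, 250 bases before to 50 after the start). The CHR was searched as TTTGAA and the CCAAT box as CCAAT, each on both strands. A CHR was present in 15.4% of all promoters, in 6 of the 8 matched promoters among the 10 genes lowest in cluster 5, in 24 of 31 spindle genes (77.4%), in 12 of 23 kinetochore genes, in 1 of 34 replication genes and in 3 of 21 immediate early genes. A CCAAT box was present in 35.7% of all promoters, in 7 of those 8, in 25 of the 31 spindle genes (80.6%), in 21 of 34 replication genes (61.8%) and in all 4 matched promoters among the 10 genes lowest in both clusters against the other non-primed cells. The windows below, in GRCh38, show the CHR in capitals for genes shared by both clusters (CDC20, PLK1) and for genes of cluster 7 (CDK1, PIF1, TOP2A, CCNF, HJURP), so that the same letters occur in both classes. A match is a description of the sequence and not of binding.
CDC20 (chr1:43358904-43358933, plus): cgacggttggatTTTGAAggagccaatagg
PLK1 (chr16:23678848-23678877, plus): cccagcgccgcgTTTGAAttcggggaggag
CDK1 (chr10:60778158-60778187, plus): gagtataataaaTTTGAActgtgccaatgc
PIF1 (chr15:64825650-64825679, minus): ctgcctctagcaTTTGAAaaatttctagtt
TOP2A (chr17:40418073-40418102, minus): cgagtggtgcctTTTGAAgcctctctagtc
CCNF (chr16:2429350-2429379, plus): gggccgggtgcgTTTGAAaactggggtggg
HJURP (chr2:233854629-233854658, minus): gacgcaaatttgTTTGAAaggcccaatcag

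CCNB1 had no CHR in this window and 2 CCAAT boxes, of which the first is shown in capitals below. EGR1 held 2 matches to the CArG box, the element bound by serum response factor, and both are shown. It was the only gene with a CArG box among the 5 matched of the 10 highest in cluster 5 and among 21 immediate early genes, and it also held a CHR. The CArG box was present in 1.28% of all promoters. EGR3, UBE2C and FAM83D were not matched in the table.
CCNB1 (chr5:69167051-69167080, plus): gaccggcagccgCCAATgggaagggagtga
EGR1 (chr5:138465364-138465393, plus): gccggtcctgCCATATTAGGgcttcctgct
EGR1 (chr5:138465386-138465415, plus): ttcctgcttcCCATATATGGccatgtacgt

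These promoters were accessible in untreated WM989 cells by ATAC-seq, a measure of open chromatin, in 12 libraries, 3 each of populations labelled EGFR_High, NGFR-High, EGFR-NGFR-High and Mix. EGFR and NGFR are markers of the primed state, to which clusters 5 and 7 do not belong, and no population was sorted by cell cycle. A MACS2 peak overlapped the start of CDC20, PIF1, CDK1, CCNB1, PLK1, CENPE, TOP2A and EGR1 in 12 of 12 libraries. The median fold enrichment was 95.3 for CDC20 (82.4 to 119.9), 72.2 for CDK1, 75.4 for PIF1 and 110.5 for EGR1 (89.6 to 130.7). By comparison 47.2% to 49.6% of all promoters had a peak in a library, and the promoter window of FAM110A had one in 0 of 12. These cells were not separated into the clusters, so the peaks do not distinguish cluster 5 from cluster 7.

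The share of mitotic cells was lowest under TGFB1 and PI3Ki. Clusters 5 and 7 held 16.6% and 17.0% of the cells in Control r1 and r2, 9.17% and 11.8% in TGFB1, 14.7% and 16.1% in TGFBRi, and 11.99% and 12.04% in PI3Ki. Each TGFB1 and PI3Ki library was below both Control libraries, and the exact 95% binomial intervals of the TGFB1 libraries (8.42% to 9.97% and 10.9% to 12.6%) did not meet those of Control (15.5% to 17.8% and 15.8% to 18.2%), though they cover counting error only. The mean difference from Control was -6.33 ± 1.58 percentage points for TGFB1 (SD of the 2 replicate differences), -1.38 ± 0.701 for TGFBRi and -4.78 ± 0.219 for PI3Ki. In an exact permutation test over the 4 treatments within replicates (one-sided on the sum of squares between treatments), p was 0.0417, the smallest that this design allows, and 0.0833 after Benjamini-Hochberg adjustment over the 2 share tests.

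The primed clusters took part of that denominator. They held 29.1% and 31.3% of TGFB1 cells against 2.26% and 4.47% in Control, 2.26% and 4.32% in TGFBRi and 0.647% and 1.21% in PI3Ki. Among non-primed cells alone, the mitotic share was 17.0% and 17.8% in Control, 12.9% and 17.1% in TGFB1, 15.1% and 16.8% in TGFBRi, and 12.1% and 12.2% in PI3Ki (exact permutation p = 0.0833), so that the TGFB1 difference was -2.36 ± 2.42 points (-4.07 in r1 and -0.644 in r2), within the spread between replicates, while that of PI3Ki was -5.26 ± 0.459. G2M cells of any cluster were 29.3% and 29.8% in Control, 26.8% and 28.7% in TGFB1, 29.1% and 31.0% in TGFBRi, and 22.6% and 23.8% in PI3Ki. The primed cluster 4 held 441 and 483 G2M cells in the TGFB1 libraries and 0 to 2 in each of the others, and clusters 5 and 7 held 33.4% and 40.0% of the G2M cells in TGFB1 against 55.3% and 55.3% in Control. Non-primed clusters took up G2M cells too. Cluster 3 held 174 and 157 in TGFB1 and 2 to 7 in each of the others. Cluster 8 held 153 and 328 in TGFBRi against 55 and 76 in Control. The non-primed denominator does not remove these cells. Cluster membership was set by expression of all genes, including those that the treatments changed, so cluster shares and expression cannot be told apart completely.

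Cluster 5 took up most of this difference. It held 10.5% and 11.6% of Control cells, 4.50% and 6.06% of TGFB1 cells, 8.91% and 8.97% of TGFBRi cells and 7.61% and 7.23% of PI3Ki cells, and all 6 treated libraries were below both Control libraries. Cluster 7 held 6.12% and 5.39% of Control cells, 4.67% and 5.72% of TGFB1, 5.83% and 7.13% of TGFBRi and 4.38% and 4.81% of PI3Ki cells. Cluster 7 thus made up 36.8% and 31.7% of the mitotic cells in Control and 50.9% and 48.6% in TGFB1, with 39.6% and 44.3% in TGFBRi and 36.5% and 39.9% in PI3Ki. The mean difference from Control was 15.5 ± 1.93 points in TGFB1, 7.63 ± 6.91 in TGFBRi and 3.95 ± 6.02 in PI3Ki, and the exact permutation test gave p = 0.0833 (0.0833 adjusted). The PI3Ki difference was within the spread between replicates, being -0.311 points in r1 and 8.20 in r2.

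**Figure D4:**
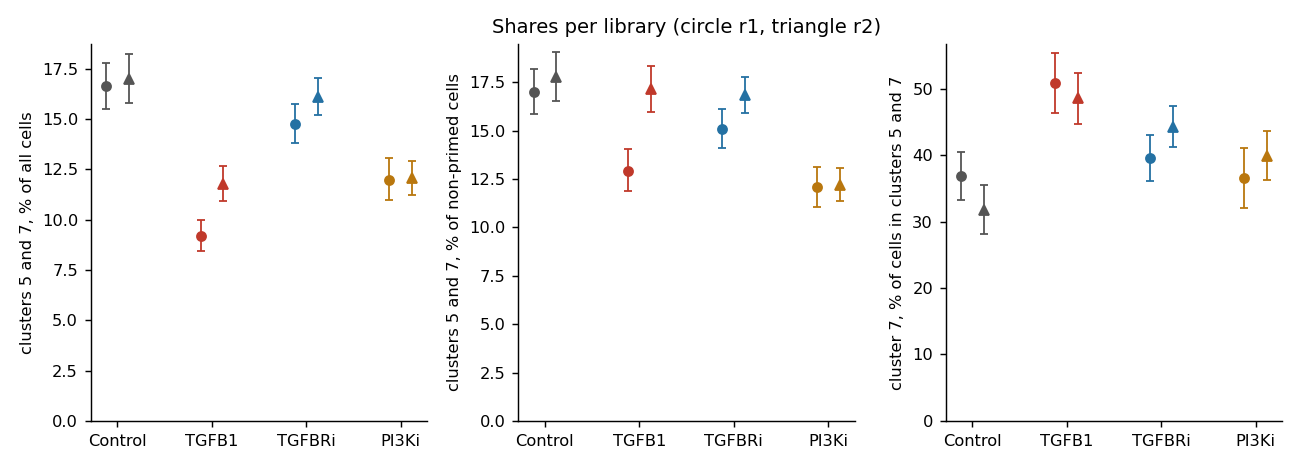
Share of cells in clusters 5 and 7 among all cells (left) and among non-primed cells (middle), and share of cluster 7 among cells of both clusters (right), in percent, for each library with exact 95% binomial intervals. TGFB1 libraries are lowest on the left (9.17% and 11.8%), PI3Ki libraries in the middle (12.1% and 12.2%), and TGFB1 libraries are highest on the right (50.9% and 48.6%).

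Treatment effects within the mitotic cells were tested on UMI counts summed per library, with edgeR's quasi-likelihood test and Benjamini-Hochberg adjustment over 13456 genes at a threshold of 0.05. TGFB1 raised 507 genes (3.77%) and lowered 346 (2.57%), TGFBRi raised 91 (0.676%) and lowered 141 (1.05%), and PI3Ki raised 323 (2.4%) and lowered 387 (2.88%). All 3 contrasts share the 2 Control libraries. The counts moved with single libraries, a lone remaining sample then being assumed to vary like the other groups. The 853 TGFB1 calls became 496 without Control r1, 435 without Control r2, 224 without TGFB1 r1, 552 without TGFB1 r2, 1295 without TGFBRi r1 and 1290 without TGFBRi r2. The 232 TGFBRi calls became 91 without Control r2, 734 without TGFBRi r1, 149 without TGFBRi r2, 152 without PI3Ki r1 and 153 without PI3Ki r2. The 710 PI3Ki calls became 421 without Control r1, 280 without Control r2, 1159 without TGFBRi r1, 1164 without TGFBRi r2, 231 without PI3Ki r1 and 163 without PI3Ki r2.

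Under TGFB1, 6 of 17 TGF-beta target and feedback genes tested rose in the mitotic cells (PMEPA1, SKIL, THBS1, SMAD7, ID3 and TGFB1) and none fell, with a list median of 0.40 against 0.00 over all genes. Of all genes 3.77% rose and 2.57% fell. PMEPA1, a feedback inhibitor of TGF-beta signalling, rose from 3.87 and 5.23 CPM in Control to 87.5 and 65.5 in TGFB1 (log2 fold change 4.05 ± 0.137 SE, adjusted p = 1.2e-26). FN1, fibronectin, rose from 49.5 and 48.7 to 342 and 364 CPM (2.84 ± 0.0883), and IGFBP5, a secreted IGF-binding protein, from 13.3 and 8.71 to 76.4 and 56.5 CPM (2.59 ± 0.110). The treated libraries were far above both Controls for each. MGP (1.42) and S100A2 (1.36) completed the 5 largest rises among genes whose mean level over the 8 libraries was 10 CPM or more, a limit that holds for all genes named as largest below. PMEPA1 and S100A2 (8.65 and 8.41 CPM) were under 10 CPM in both Control libraries, so the TGFB1 libraries in which they are high helped them pass that limit. MMP2, a matrix metalloproteinase under that limit, rose by 2.08 and is named here after its value was seen. The largest falls were those of ACSS1 (18.3 and 16.9 to 5.76 and 7.001 CPM, log2 fold change -1.45), C3orf49 (-1.15), ZCCHC24 (-1.15), ISG20 (-1.101) and CDKN2B (25.1 and 24.5 to 13.1 and 11.6 CPM, -1.01), the last not called in cluster 7 alone (-0.52).

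Of the 8 markers, 4 changed under TGFB1 in the pooled mitotic cells. EGR3 fell from 42.2 and 50.2 to 25.1 and 33.9 CPM (log2 fold change -0.64 ± 0.111, adjusted p = 8.3e-05), a call lost without TGFB1 r1. UBE2C rose from 349.8 and 339.8 to 457 and 419 CPM (0.34 ± 0.0770), FAM83D from 49.0 and 54.8 to 68.4 and 72.6 (0.43 ± 0.0840) and PIF1 from 45.4 and 35.9 to 51.8 and 49.2 (0.31 ± 0.0920). The UBE2C call was lost without Control r2 or TGFB1 r1, that of FAM83D without TGFB1 r1, and that of PIF1 in 5 of the 8 fits that left out a library (Control r2, either TGFB1 or either PI3Ki library). Within cluster 7 alone none of these passed the test (UBE2C -0.047, FAM83D 0.01, PIF1 -0.15, EGR3 0.31), and within cluster 5 only EGR3 did (-0.48). Cluster 7 made up 50.9% and 48.6% of the pooled cells in TGFB1 against 36.8% and 31.7% in Control, and the part of this in the pooled values was not tested. CCNB1 (-0.01), CDC20 (0.06), CENPE (-0.07) and PLK1 (0.19) did not pass the test. The clusters were built from these genes, so the choice of cells limits how far marker levels inside them can move under any treatment.

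The wider mitotic lists were also tested under TGFB1. In the pooled cells 5 of 35 spindle genes rose (PIF1, KIF23, KPNA2, FAM83D and GTSE1), as did 4 of 28 kinetochore genes, 2 of 13 cyclin-CDK1 genes (CDK1 0.31, CCNF 0.33) and 2 of 13 mitotic kinase genes (AURKA 0.33, AURKB 0.31). HMGB2 of the condensation list fell (-0.33), also in each cluster alone, while H2AFX and TOP2A of its 15 genes rose in the pooled cells, and of 16 APC/C and checkpoint genes UBE2C rose and MAD1L1 fell (-0.28), the latter also in cluster 7 alone. Within cluster 7, 0 of 13 cyclin-CDK1, 0 of 13 kinase and 0 of 28 kinetochore genes passed the test, and 1 of 35 spindle genes fell (PSRC1). Within cluster 5, AURKA, the kinetochore list's CDCA8 and the spindle gene KIF23 rose, and 0 of 13 cyclin-CDK1 genes passed the test. Over all genes 3.77% rose and 2.57% fell in the pooled cells, while 4.16% passed in cluster 7 and 3.33% in cluster 5. Within a single cluster, counts of 0 or 1 in lists of this size are near the share of all genes. MYC fell in both clusters, from 215 and 226 to 113 and 127 CPM in the pooled cells (log2 fold change -0.88 ± 0.0796), by 0.62 on the log2 scale in cluster 5 and by 0.72 in cluster 7. Of 28 immediate early genes, 7 fell in the pooled cells (ATF3, EGR3, MYC, KLF6, NR4A1, JUNB and IER2) and KLF10, a TGF-beta-inducible gene, rose (0.54). This split was not seen within the clusters, where 4 rose (IER3, KLF10, SPRY2 and FOS) and 3 fell (EGR3, MYC and KLF6) in cluster 5, and IER3 rose and MYC fell in cluster 7. In the pooled cells, of 16 G1 cyclins and CDK inhibitors, 5 fell (CDKN2B, CDKN2A, CCNG2, CDK6 and CCND1) and CDKN2C rose (0.56). In cluster 5 the same 5 fell, and in cluster 7 only CDK6 and CDKN2A did.

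TGFBRi lowered genes of the TGF-beta list. The mitotic markers did not pass the test, but the clusters were built from them, so the choice of cells limits their change. ID3, an inhibitor of basic helix-loop-helix factors, fell from 23.4 and 26.2 to 3.67 and 3.32 CPM (log2 fold change -2.80 ± 0.164, adjusted p = 4.4e-17). PMEPA1 fell from 3.87 and 5.23 to 0.611 and 0.863 CPM (-2.56 ± 0.315), a low gene that met the 10 CPM limit only through the TGFB1 libraries, and COL9A3, a collagen IX chain, from 62.0 and 57.6 to 16.1 and 11.7 CPM (-2.09 ± 0.106). ID1 (-1.46) and COL6A5 (-1.12), which also met that limit only through libraries of other treatments, were the next largest falls, and 5 of 17 TGF-beta genes fell (ID1, ID2, ID3, SKIL and PMEPA1) with none rising. Over all genes 0.676% rose and 1.05% fell. The largest rises were in BAALC (1.02), VGF (536 and 964 to 1124 and 1754 CPM, 0.99 ± 0.0843), NUPR1 (0.95), SOD3 (0.65) and C11orf96 (0.64). SOD3 lost its call without Control r2 or TGFBRi r2, and in cluster 7 alone neither SOD3 (0.56, adjusted p = 0.0589) nor C11orf96 (0.42, adjusted p = 0.109) was called.

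None of the 8 markers was called under TGFBRi in the pooled cells, with log2 fold changes from -0.16 (EGR3) to 0.24 (PLK1). In the clusters alone EGR3 was at 0.05 in cluster 5 and 0.15 in cluster 7, and PIF1 at 0.60 and -0.25, none of them called. Among the mitotic lists CDC25B, the phosphatase that activates CDK1, rose (0.32), though it was called in neither cluster alone. No spindle (0 of 35), kinetochore (0 of 28) or mitotic kinase (0 of 13) gene passed the test in either direction, pooled or in either cluster. Over all genes 1.72% passed in the pooled cells, 1.55% in cluster 5 and 0.813% in cluster 7, so counts of 0 in lists of this size are near the share of all genes. CDK1 rose in cluster 5 alone, among 13 cyclin-CDK1 genes. MYC fell from 215 and 226 to 166 and 146 CPM (-0.47 ± 0.0772), CCND1, cyclin D1, rose (0.28) and RB1 fell (-0.48). When each cluster was tested alone, MYC and CCND1 were called in cluster 5 and not in cluster 7, and RB1 in cluster 7 and not in cluster 5.

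Under PI3Ki the largest changes were outside the mitotic lists. BNIP3, a mitochondrial protein induced by hypoxia and FOXO factors, fell from 219 and 279 to 70.3 and 78.5 CPM (log2 fold change -1.67 ± 0.0798, adjusted p = 2.9e-20). DDIT4, an inhibitor of mTORC1, fell from 177 and 187 to 71.9 and 64.0 CPM (-1.36 ± 0.0820), and FN1 to 11.8 and 15.2 CPM (-1.78 ± 0.114). FRZB (-1.51) and IGFBP5 (-1.06), both over the 10 CPM limit only through libraries of other treatments, completed the largest falls. The largest rises were those of CST1 (5.23 and 8.56 to 29.0 and 46.1 CPM, 2.52 ± 0.151), a salivary cystatin whose near-identical paralogs may share its reads, ID3 (to 69.3 and 94.0 CPM, 1.79 ± 0.104), APOD (1.38), ID1 (1.27) and C11orf96 (1.0975). CST1 and APOD (7.43 and 6.29 CPM) were under 10 CPM in both Control libraries, so the PI3Ki libraries in which they are high helped them pass the limit. Of 12 melanocyte markers, 4 rose (PMEL 0.57, MLANA 0.47, TYR 0.43 and RAB27A 0.26) and DCT fell (-0.33), and of 12 primed state markers 6 fell (FN1, SERPINE2, NT5E, FOSL1, NGFR and AXL). Over all genes 2.4% rose and 2.88% fell. AXL was near the floor, at 0.366 CPM in cluster 5 and 1.64 in cluster 7 over all libraries. Neither AXL nor SERPINE2 was called in cluster 5 alone. NGFR had 0.228 and 6.21 CPM in Control and 0.217 and 0.196 in PI3Ki, so its fall came from r2.

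No marker was called under PI3Ki either, with log2 fold changes between -0.26 (EGR3) and 0.11 (PIF1), and the choice of cells limits these changes too. Of 35 spindle genes 3 fell, namely ANLN (anillin, which organises the cleavage furrow, -0.32), PRC1 (a midzone microtubule bundler, -0.28) and CIT (citron kinase, -0.25). Of 15 condensation genes 3 fell, HMGB2 (-0.40), NCAPG2 (-0.35) and MKI67 (-0.27). In the pooled cells none of 28 kinetochore, 13 cyclin-CDK1 or 13 kinase genes passed the test in either direction. In cluster 5 alone 2 of 28 kinetochore genes (NUF2 and SPC24) and 2 of 13 kinase genes (PBK and AURKA) fell, and in cluster 7 alone 5 of 35 spindle genes fell (ASPM, CKAP2L, KIF15, ANLN and PRC1). Over all genes 1.94% rose and 2.15% fell in cluster 5, 1.71% and 1.92% in cluster 7, and 2.4% and 2.88% in the pooled cells. Of 16 G1 genes 4 fell (CCND1 -0.39, CDK6 -0.41, CDKN1B -0.30, CDKN2D -0.40), and of 28 immediate early genes EGR1 (0.49) and FOS (0.34) rose while IER3 (-0.47) and FOSL1 (-0.50) fell.

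**Figure D5:**
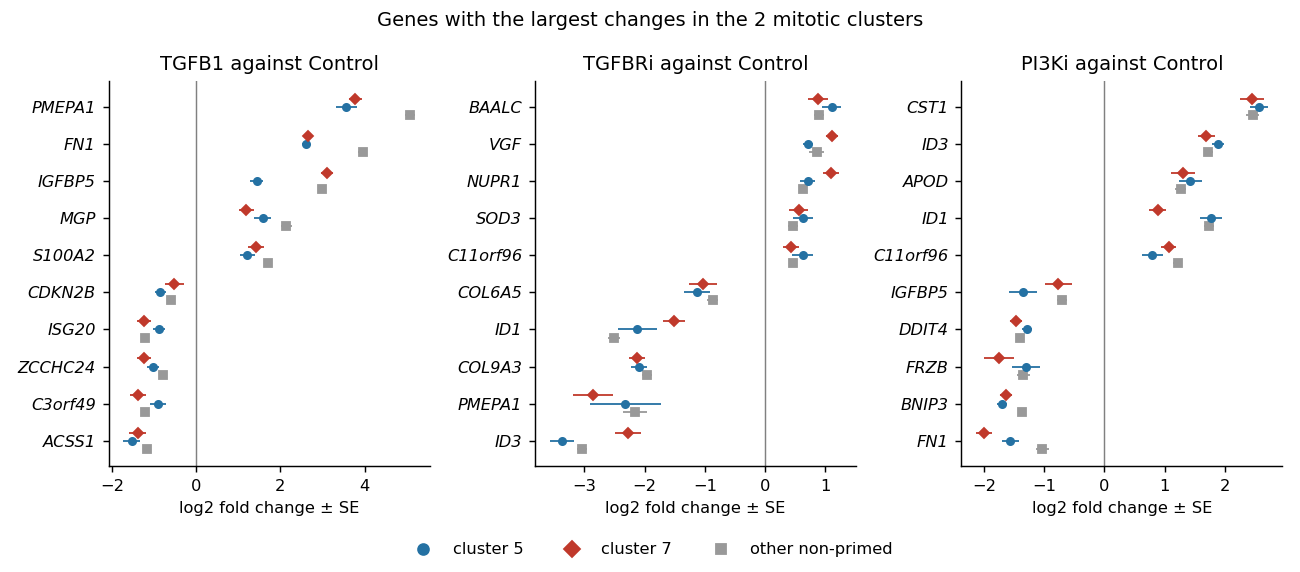
Log2 fold change against Control with its SE (horizontal axes) of the 10 genes named for each treatment, in cluster 5 (circles), cluster 7 (diamonds) and the other non-primed cells (squares). Under TGFB1, FN1 rose by 2.61 in cluster 5, 2.65 in cluster 7 and 3.95 in the other non-primed cells, and IGFBP5 by 1.44, 3.10 and 2.99.

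Each cluster was also tested alone. In cluster 5, 410 genes passed under TGFB1 (3.33% of 12323), 191 under TGFBRi (1.55%) and 504 under PI3Ki (4.09%). In cluster 7, 502 passed under TGFB1 (4.16% of 12055), 98 under TGFBRi (0.813%) and 437 under PI3Ki (3.63%). Genes called in both with the same direction numbered 222 under TGFB1 (54.1% of the cluster 5 calls and 44.2% of the cluster 7 calls), 65 under TGFBRi (34.0% and 66.3%) and 239 under PI3Ki (47.4% and 54.7%). Leaving out single libraries moved these counts by more than 1.5 times. In cluster 5, TGFB1 calls fell to 235 without Control r1, 187 without Control r2, 89 without TGFB1 r1 and 165 without TGFB1 r2; TGFBRi calls were 77 without Control r2, 369 without TGFBRi r1 and 91 without TGFBRi r2; and PI3Ki calls were 334 and 167 without Control r1 and r2 and 214 and 156 without PI3Ki r1 and r2. In cluster 7, TGFB1 calls were 169 and 207 without Control r1 and r2 and 226 without TGFB1 r1. TGFBRi calls in cluster 7 were 34 and 32 without Control r1 and r2 and 49 without TGFBRi r2, and PI3Ki calls 156 and 135 without Control r1 and r2 and 175 and 94 without PI3Ki r1 and r2.

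Whether an effect differed between the clusters was tested as an interaction over 12620 genes. It passed for 25 genes under TGFB1 (0.198%), 8 under TGFBRi (0.0634%) and 5 under PI3Ki (0.0396%). DESeq2 gave 1, 0 and 0 such genes, with 59, 20 and 47 at an unadjusted p under 0.05, and edgeR without the library as a block 0, 0 and 0, with 356, 297 and 372. The TGFB1 effect on IGFBP5 was smaller in cluster 5 (14.0 and 9.07 to 44.3 and 20.6 CPM) than in cluster 7 (12.5 and 8.18 to 97.8 and 82.7 CPM), a difference of -1.66 ± 0.204 on the log2 scale (adjusted p = 4.6e-12). CDK1 had the largest deficit in cluster 5, and the part of cell assignment in its changes was not tested. The ratio of median UMIs, cluster 7 to cluster 5, was 1.74 and 1.65 in TGFBRi against 1.47 and 1.52 in Control. The TGFBRi effect on CDK1 also differed, with levels going from 11.0 and 13.0 to 18.0 and 22.1 CPM in cluster 5 and from 180.3 and 210.3 to 176 and 163 in cluster 7 (0.97 ± 0.152, adjusted p = 9.7e-07), and cluster 5 lay below the other non-primed cells in all of these libraries. This call was lost without Control r2. The count under TGFB1 was 13 without Control r1, 10 without Control r2 and 13 without TGFB1 r1. Under TGFBRi it was 4 without Control r2 and 2 without TGFBRi r1, and under PI3Ki 1 without Control r2, 13 without TGFB1 r1, 3 without TGFBRi r1, 3 without TGFBRi r2 and 2 without PI3Ki r2.

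The mitotic cells and the other non-primed cells were compared in the same way over 16302 genes. The effect differed for 537 genes under TGFB1 (3.29%), 19 under TGFBRi (0.117%) and 657 under PI3Ki (4.03%). DESeq2 gave 116, 2 and 219 such genes, and edgeR without the library as a block 1, 0 and 0. CCN2, a matricellular TGF-beta target, was at 9.71 and 9.09 CPM in Control and 9.44 and 9.75 in TGFB1 among mitotic cells, and at 6.20 and 6.88 and then 27.7 and 24.5 CPM in the other non-primed cells, a difference of -1.94 ± 0.158 on the log2 scale (adjusted p = 1.6e-18). FN1 rose by less in the mitotic cells (-1.09 ± 0.0638), and 6 of 20 TGF-beta genes had a lower effect there, against 1 higher. Of 29 immediate early genes, 14 had a lower TGFB1 effect in the mitotic cells and none a higher one, whereas 15 of 35 spindle genes, 14 of 28 kinetochore genes and 9 of 40 replication genes had a higher one. Under PI3Ki 11 of 24 histones had a higher effect, 8 of 29 immediate early genes a lower and 1 a higher one, and 6 of 35 spindle genes a higher one. A higher effect may be a smaller fall. The mitotic clusters were built from cell cycle genes, which limits how far such genes can move in their cells under any treatment. These counts for cell cycle lists are thus in part set by the choice of cells, and its part was not tested. The other non-primed cells differed in phase, with 44.7% and 46.7% S cells in Control, 38.4% and 37.6% in TGFB1, 47.2% and 45.2% in TGFBRi and 38.5% and 36.8% in PI3Ki, and the mitotic cells differed in make-up, with cluster 7 at 36.8% and 31.7% of them in Control and 50.9% and 48.6% in TGFB1. Clusters were called after treatment on all genes, including those that TGFB1 changed. Cluster 3, among the other non-primed clusters, held 174 and 157 G2M cells in the TGFB1 libraries and 5 and 7 in Control. The FN1 and CCN2 values of the mitotic cells cover only cells assigned to clusters 5 and 7. The part of phase, make-up or cluster assignment in the differences was not tested. For EGR3, the TGFB1 change was -0.64 pooled, -0.48 in cluster 5 and 0.31 in cluster 7.

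These counts also rested on single libraries. The 537 differences under TGFB1 became 306 and 243 without Control r1 and r2, and 163 and 263 without TGFB1 r1 and r2. The 19 under TGFBRi became 7 without Control r2, 10 without TGFB1 r1, 6 and 4 without TGFBRi r1 and r2, and 30 and 33 without PI3Ki r1 and r2. The 657 under PI3Ki became 344 and 311 without Control r1 and r2, and 374 and 358 without PI3Ki r1 and r2.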

How the data were processed

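Droplet-based single-cell RNA-seq of WM989 was analysed from the count matrix that the authors deposited, whole-number UMI counts for 36601 genes from Cell Ranger, with the authors' clusters, phase calls, mitochondrial percent and cell cycle scores per cell, which were deposited as such. The authors had filtered cells before deposit (2001 to 5999 genes and at most 25.0% mitochondrial reads in the files). Counts were summed per library over the cells of a cluster and expressed as CPM. Sums were tested in R 4.3.3 with edgeR 4.0.16 (filterByExpr, TMM factors of 0.968 to 1.05 in the mitotic sums, glmQLFit and glmQLFTest, two-sided) with treatment and replicate as terms, 3 residual degrees of freedom and Benjamini-Hochberg adjustment. Interactions were fitted over 16 sums with the library as a block and a term of cell class by replicate. DESeq2 1.42.0, other factors, no filter, no replicate block, equal cell numbers (463 per library), single clusters, G2M cells only and leaving out each library were alternatives. Leaving out cells with shared barcodes was added after seeing the data. The SE beside a log2 fold change is the size of that change divided by the square root of the test's F statistic. It thus rests on dispersion shared across genes. Clusters were built from these counts, so cluster against cluster was not tested.

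The replicate number was used as a block because, per the study's methods, each replicate is a well of cells split over the 4 plates. The difference r2 minus r1 correlated between treatments with Pearson r of 0.117 to 0.227 in all 6 pairs. The cells all come from the same clonal line, so p-values of the treatment effects measure the spread between such parallel cultures. For the differences between cell classes, the library block takes that spread out. Those p-values measure how the difference between 2 cell classes of the same library varies. Named genes were the 8 markers, the 10 highest and lowest ratios at 20 CPM or more, and per treatment the 5 largest rises and falls among called genes that moved the same way in both replicates and had a mean of at least 10 CPM, with 3 per direction for differences. The members and gene lists were chosen with earlier results of these data known. The tests were run on simulated counts before use. ATAC-seq peaks carry the fold enrichment and −log10 q-value of MACS2 2.1.1.20160309 as deposited by the authors, after alignment with Bowtie2 2.3.4.1 per the labels. Python 3.11.15, NumPy 2.4.6, pandas 2.3.3 and SciPy 1.17.1 were used. The WM983B data and other files were not used here.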

Additional observations from a re-analysis of the deposited data

Results flagged for a closer look

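The results below stood out because the same treatment effect differed between cell classes by a test of the difference itself (edgeR quasi-likelihood test of the interaction, Benjamini-Hochberg adjusted p under 0.05). Values are differences of log2 fold changes, so a higher effect may be a smaller fall and need not be a rise. Cells were assigned to clusters on these same counts after treatment, so the choice of cells limits what these tests show. The named genes are the largest in each direction among those that moved the same way in both replicates and had a mean of at least 10 CPM, so their sizes are selected, and no explanation of them was tested. Of the 33 named differences, 26 lost their call in at least 1 of the 8 fits that left out a library, 26 lost it with DESeq2, and all 33 lost it without the library as a block.

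Between the mitotic cells and the other non-primed cells, the TGFB1 effect was higher in the mitotic cells for C5orf34 (0.863), OSGIN1 (0.648) and the histone HIST1H3G (0.583). The changes of these genes were 0.55, 0.06 and 0.22 in the mitotic cells, with only C5orf34 called. In the other non-primed cells they were -0.30, -0.60 and -0.37. The TGFB1 effect was lower for CCN2 (-1.94), FN1 (-1.09) and LMO7 (-1.04). LMO7, an actin-associated protein, started from a higher level in mitotic cells, with 26.4 and 36.1 CPM in Control against 7.91 and 10.4 in the other non-primed cells, and reached 51.9 and 59.2 against 34.4 and 33.5 in TGFB1. The TGFBRi effect was higher for ID1 (1.04) and for the nuclear RNAs MALAT1 (0.183) and NEAT1 (0.162), and lower for CDKN2B (-0.521), EGR3 (-0.493) and TSC22D1 (-0.364). ID1 fell in both classes, by less in the mitotic cells (-1.46) than in the other non-primed cells (-2.51). MALAT1 (0.15 and -0.04) and NEAT1 (-0.06 and -0.23) were called in neither class. The TGFBRi change of EGR3 was -0.16 in the pooled mitotic cells, 0.05 in cluster 5 and 0.15 in cluster 7. For CDKN2B these were -0.31, -0.25 and 0.17, and for TSC22D1 -0.69, -0.65 and -0.38. The PI3Ki effect was higher for the histones HIST1H1A (0.620), HIST1H3G (0.595) and HIST2H2AC (0.594). Their changes were 0.15, -0.01 and -0.03 in the mitotic cells, none of them called, and -0.45, -0.59 and -0.62 in the other non-primed cells. HIST2H2AC had 41.0 and 36.3 CPM in mitotic Control cells and 45.1 and 28.9 in PI3Ki, against 174 and 142 and then 124 and 73.4 in the other non-primed cells. The PI3Ki effect was lower for FN1 (-0.729), DIPK1C (-0.626) and SORBS2 (-0.618). Among these genes, DIPK1C lost its call in 4 of the fits, OSGIN1, HIST1H3G (TGFB1), CDKN2B and HIST1H1A in 3 each, EGR3, NEAT1, HIST1H3G (PI3Ki) and SORBS2 in 2 each, and ID1, MALAT1 and TSC22D1 in 1 each.

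Between cluster 5 and cluster 7, the TGFB1 effect was higher in cluster 5 for CDK1 (0.723), TRIM63 (0.605) and VGF (0.485), and lower for IGFBP5 (-1.66), DYRK2 (-0.790) and EGR3 (-0.785). The TGFB1 changes of CDK1, TRIM63 and VGF were 0.53, 0.18 and -0.20 in cluster 5, none of them called. In cluster 7 they were -0.17, -0.45 and -0.70. The TGFBRi effect was higher in cluster 5 for CDK1 (0.973), PIF1 (0.840) and FN1 (0.796), and lower for VGF (-0.407). VGF rose in both clusters (0.71 in cluster 5 and 1.11 in cluster 7). CDK1, PIF1 and EGR3 are among the genes that most separate the clusters, which were built from them. The choice of cells thus limits what their differences show, and its part was not tested. FN1 had 28.3 and 35.3 CPM in cluster 5 of Control and 29.4 and 37.9 in TGFBRi, against 75.6 and 69.0 and then 37.4 and 49.7 in cluster 7. The PI3Ki effect was higher in cluster 5 for ID1 (0.903), ZNF292 (0.542) and SERPINE2 (0.469), and lower for the heat shock gene HSPA1A (-0.686) and HERPUD1 (-0.532). The PI3Ki changes of ID1, ZNF292 and SERPINE2 were 1.77, -0.14 and -0.23 in cluster 5 and 0.89, -0.68 and -0.69 in cluster 7. HSPA1A had 39.1 and 49.6 CPM in cluster 5 of Control and 26.2 and 30.2 in PI3Ki, against 60.03 and 69.4 and then 60.5 and 68.2 in cluster 7, and its near-identical copy HSPA1B may share its reads. Between the clusters, ID1 and ZNF292 (PI3Ki) lost their calls in 6 of the fits, DYRK2, EGR3 and PIF1 in 4 each (both Control libraries and both libraries of the treatment), TRIM63 and HERPUD1 in 3 each, CDK1 (TGFB1), VGF (TGFBRi), SERPINE2 and HSPA1A in 2 each, and CDK1 (TGFBRi), FN1 and VGF (TGFB1) in 1 each.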

How the results depend on the processing

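Of the 34 named treatment calls, RLE factors, equal cell numbers, G2M cells only and cells without shared barcodes lost 0, DESeq2 lost 4 and the absence of a low-count filter 1, while 3 were not called in cluster 5 alone and 7 in cluster 7 alone.

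DESeq2 called 301, 81 and 274 genes in the pooled cells under TGFB1, TGFBRi and PI3Ki, 108, 45 and 142 in cluster 5, and 139, 35 and 135 in cluster 7. It found 116, 2 and 219 differences between mitotic and other cells, and 1, 0 and 0 between the clusters, where 59, 20 and 47 genes had an unadjusted p under 0.05. Of the 33 named differences it lost 26. Without a filter on low counts TGFBRi gave 5 differences between the clusters. Cluster 5 alone gave 410 TGFB1 calls, and cluster 7 alone 502, 98 and 437 for TGFB1, TGFBRi and PI3Ki. In cluster 7 alone the TGFB1 values of EGR3 (0.31), UBE2C (-0.047) and PIF1 (-0.15) had the opposite sign; the cause was not tested.

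Without the replicate block that pairs the libraries, 389, 58 and 248 genes were called in the pooled cells, 148, 47 and 186 in cluster 5, and in cluster 7 41 under TGFBRi and 231 under PI3Ki. The named calls lost were 4 of 34. The differences between mitotic and other cells fell to 1, 0 and 0 (706, 292 and 608 at an unadjusted p under 0.05) and those between clusters to 0, 0 and 0 (356, 297 and 372). That setting leaves out both the library block and the term of cell class by replicate, and the part of each was not tested. The permutation p for the share of cluster 7 was 0.0381 without the pairing, and 0.0286 with G2M cells only. For the mitotic share the unpaired permutation p was 0.00952, with 0.124 among non-primed cells and 0.0381 for all G2M cells.

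For shares, the exact permutation p was 0.0833 with non-primed cells as the denominator and 0.0833 for all G2M cells. The TGFB1 difference was then -2.36 and -1.85 points, that of PI3Ki -5.26 and -6.38, and that of TGFBRi 0.52 for all G2M cells. With G2M cells only, p for the cluster 7 share was 0.0417.

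Leaving out each library gave 224 to 1295 TGFB1, 91 to 734 TGFBRi and 163 to 1164 PI3Ki calls in the pooled cells. The ranges were 89 to 612, 77 to 369 and 156 to 742 in cluster 5, 169 to 570, 32 to 142 and 94 to 610 in cluster 7, 163 to 633, 4 to 33 and 311 to 610 for mitotic against other cells, and 10 to 30, 2 to 9 and 1 to 13 between clusters. With either replicate left out, the mitotic share differed by -7.45 to -5.21 (TGFB1), -1.87 to -0.882 (TGFBRi) and -4.94 to -4.63 points (PI3Ki), and the cluster 7 share by 14.1 to 16.8, 2.75 to 12.5 and -0.311 to 8.20, the last reversed without replicate 2.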
